A study of Mus musculus with 57 samples.

Results

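The 13 hearts described here came from mice of the acute study that received doxorubicin (Doxo) without nicotinamide mononucleotide (NMN). They are 13 of the 40 hearts sequenced in the acute study and of the 57 in the series. They were ordered by their own level of *Cdkn1a*, given as CPM (the count of a gene divided by the total count of the library, times 1000000), and the 6 highest were set beside the 6 lowest, which left 1 heart in the middle. Because measured values chose the hearts, everything said of the 13 Doxo hearts is a description with no test of one side against the other, *Cdkn1a* itself is left out of every comparison, and tests were run only in the hearts that the ranking did not use, 13 from Doxo-NMN mice and 14 from Ctrl mice.

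All mice were male C57BL6/J, bought at 9 weeks of age. Doxo mice received a single intraperitoneal dose of 20 mg/kg and vehicle, Doxo-NMN mice received the same dose of Doxo and 180 mg/kg/day of NMN by intraperitoneal injection from before Doxo until the end, and Ctrl mice received vehicle only. Hearts were collected on day 5 after Doxo, so each heart came from a mouse alive on that day, and each library was made from 1 heart. Total counts ran from 32409622 to 52102850 per library over the 40 acute hearts, with a median of 39727400, and 3 counts, taken as the detection floor, corresponded to 0.0576 to 0.0926 CPM.

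*Cdkn1a* encodes p21, an inhibitor of cyclin-dependent kinases and one of the best known targets of the transcription factor p53. Doxorubicin is an anthracycline that traps topoisomerase II on DNA and so causes DNA breaks, to which p53 responds, and it also loads mitochondria, where redox cycling of the drug produces reactive oxygen. In the adult heart, p21 and other stress genes can also be induced by routes that do not need p53, among them cytokine, glucocorticoid and growth factor signalling.

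The *Cdkn1a* gene (ENSMUSG00000023067) lies on the plus strand of chromosome 17 from 29090976 to 29100727 in GRCm38, with the annotation of GENCODE. Its promoter is printed because the ranking rests on this gene, and that of *Btg2* because *Btg2* is a p53 target that rose with *Cdkn1a* over the ranking. Both are the 250 bases before a RefSeq start of the gene in GRCm38.p6, written 5′ to 3′ on the strand of the gene, with motif matches in capitals. Only a window that holds the motif is printed, and distances from any other start of the gene would differ. The window of *Cdkn1a* is chr17:29090729-29090978 on the plus strand and holds a paired p53 core, CATGNNNNNNCATG, that begins 48 bases before this start. The window of *Btg2* is chr1:134079156-134079405 on the minus strand and holds a cAMP response element, TGACGTCA, that begins 166 bases before the start.
*Cdkn1a*: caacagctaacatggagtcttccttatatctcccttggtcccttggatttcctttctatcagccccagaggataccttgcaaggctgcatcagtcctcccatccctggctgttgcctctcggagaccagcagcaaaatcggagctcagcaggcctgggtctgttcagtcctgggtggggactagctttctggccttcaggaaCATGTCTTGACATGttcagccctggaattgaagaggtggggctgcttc
*Btg2*: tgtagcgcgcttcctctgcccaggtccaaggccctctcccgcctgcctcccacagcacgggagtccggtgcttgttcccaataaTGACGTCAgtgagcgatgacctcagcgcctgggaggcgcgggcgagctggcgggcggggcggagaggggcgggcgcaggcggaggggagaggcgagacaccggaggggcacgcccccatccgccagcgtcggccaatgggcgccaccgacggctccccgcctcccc

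In the Doxo hearts, *Cdkn1a* rose in small steps along the ranking apart from a wide step above the 2 lowest hearts. The 6 lowest hearts had 55.5, 81.8, 137.6, 151.8, 163.9 and 175.4 CPM, the middle heart had 185.4 CPM, and the 6 highest had 199.8, 201.0, 211.7, 213.8, 215.3 and 241.1 CPM. The hearts just inside the border, at 175.4 and 199.8 CPM, thus lay close to the heart between them at 185.4 CPM, and the border cuts a continuous range. Ctrl hearts had a median of 63.7 CPM (46.2 to 83.4), so 11 of the 13 Doxo hearts lay above every Ctrl heart and the lowest 2, Doxo replicates 6 and 7, lay within the Ctrl range. Doxo-NMN hearts had a median of 72.5 CPM, with 12 hearts from 58.6 to 93.7 CPM and replicate 10 alone at 157.8 CPM. The hearts are called *Cdkn1a*-high and *Cdkn1a*-low below.

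**Figure D1:**
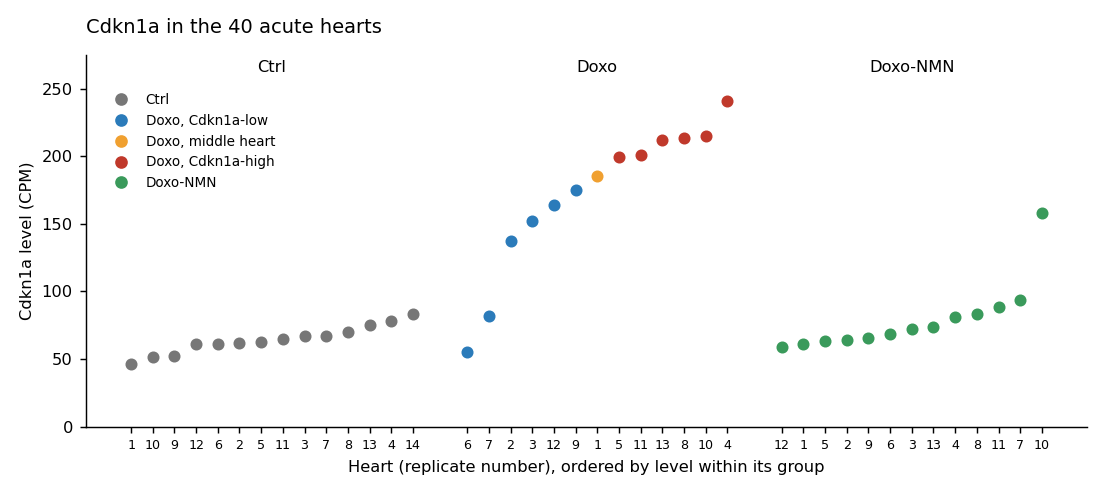
*Cdkn1a* in CPM (y axis) in each of the 40 acute hearts, grouped as Ctrl, Doxo and Doxo-NMN on the x axis, with the Doxo hearts marked as *Cdkn1a*-low, middle or *Cdkn1a*-high. The Doxo hearts run from 55.5 to 241.1 CPM with no gap at the border between the sets, and 1 Doxo-NMN heart, at 157.8 CPM, stands above the other 12.

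Before any gene is described, 1 library needs to be set apart. Doxo replicate 6, the lowest in *Cdkn1a*, resembled Ctrl in the marker sum and in the scores given below, and whether it is what its label says cannot be settled from the counts. The summed CPM of 5 red cell markers, the globin genes and *Alas2*, was 333 in it, against 1.30 to 3.65 in the other Doxo hearts, 0.211 to 2.75 in Doxo-NMN hearts and 463 to 4486 in Ctrl hearts. The counts, the median rho of the lists and the rho of most named genes are therefore also given without it. The other hearts carried another uneven feature, atrial tissue: *Myl4*, the atrial myosin light chain, was above 100 CPM in Doxo replicates 7, 3, 12, 1 and 11, which are 3 low hearts, the middle heart and 1 high heart, and its rank correlation with *Cdkn1a* was 0.04 (-0.22 without replicate 6). Replicate 13, a high heart, lay just under that limit at 88.1 CPM. The summed CPM of 8 atrial markers had a median of 669 in low and 72.0 in high hearts, with overlapping ranges. Its rank correlation with *Cdkn1a* was -0.22 (-0.29 without replicate 6).

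Over the 14239 genes tested, Spearman's rho with *Cdkn1a* across the 13 Doxo hearts was at least 0.8 for 55 genes (0.386%) and at most -0.8 for 267 genes (1.88%). Groups of 6 hearts did not overlap for 26 genes that were higher in all 6 *Cdkn1a*-high hearts (0.183%) and 164 that were lower (1.15%). The genes that are described were chosen by these same hearts, so the shares are a background for the counts and nothing is read from them. Without Doxo replicate 6, 27 and 141 genes reached the limits, of which 25 and 110 were among the 55 and the 267. Leaving out replicate 7, the next lowest, gave 28 and 117. Other single hearts also moved these counts: without replicate 12 they were 166 and 465, without replicate 5 they were 94 and 438, without replicate 11 they were 89 and 413, without replicate 10 the count of rising genes was 83, and the count of falling genes was 418 without replicate 3, 177 without replicate 4 and 470 without replicate 8.

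The balance of the 2 directions depended on how the libraries were scaled. With CPM on the deposited totals, the median rho of all tested genes was -0.24 (-0.27 without replicate 6) and 17.1% of the genes past the limits rose with *Cdkn1a*. Scaling by trimmed mean of M-values (TMM) sets the bulk of genes equal between libraries. For rho after TMM, *Cdkn1a* was scaled as well, so the order of the hearts also changed. By that order, all 6 high hearts and 5 of the 6 low hearts kept their side. After TMM the median rho was -0.02, 486 genes rose and 362 fell, and the rising share was 57.3%. Of the 55 and the 267 genes, 48 and 114 were past the limits on both scales. The median log2 difference between high and low hearts over all genes, with the sides kept as ranked on totals, was -0.13 on totals and -0.02 after TMM. The TMM factor itself was 0.786 to 1.03 in high hearts, 0.915 to 1.09 in low hearts and 1.13 in the middle heart. Each median rho below is therefore read beside -0.24, beside -0.02 where it is given after TMM, and beside -0.27 where it is given without replicate 6. Counts of positive genes are read beside 33.1% of all genes on totals, and beside 6952 of 14239 genes after TMM.

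Among the genes highest in rho, *Xirp1* (ENSMUSG00000079243, chromosome 9, 120013755 to 120023598, minus strand) encodes Xin, an actin-binding protein of the intercalated disc that is induced in damaged striated muscle. In the ranking order from the lowest *Cdkn1a* heart, *Xirp1* was 284, 298, 848, 580, 707 and 769 CPM in low hearts, 776 in the middle heart and 796, 1018, 904, 930, 1733 and 1700 CPM in high hearts, against 228 to 336 CPM in Ctrl. The 2 lowest hearts lay in the Ctrl range, 1 low heart exceeded the lowest high heart, and rho was 0.90 (0.87 without replicate 6, 0.90 after TMM). *Zfp697*, a zinc finger protein gene, was 11.3, 29.1, 44.3, 58.2, 107 and 38.4 CPM in low hearts and 269, 133, 118, 159, 162 and 246 CPM in high hearts, with 66.4 CPM in the middle heart. Its rho was 0.87 (0.83 without replicate 6), its groups did not overlap, the ratio of their medians was 3.88, and Ctrl hearts had a median of 13.5 CPM (9.38 to 16.3).

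**Figure D2:**
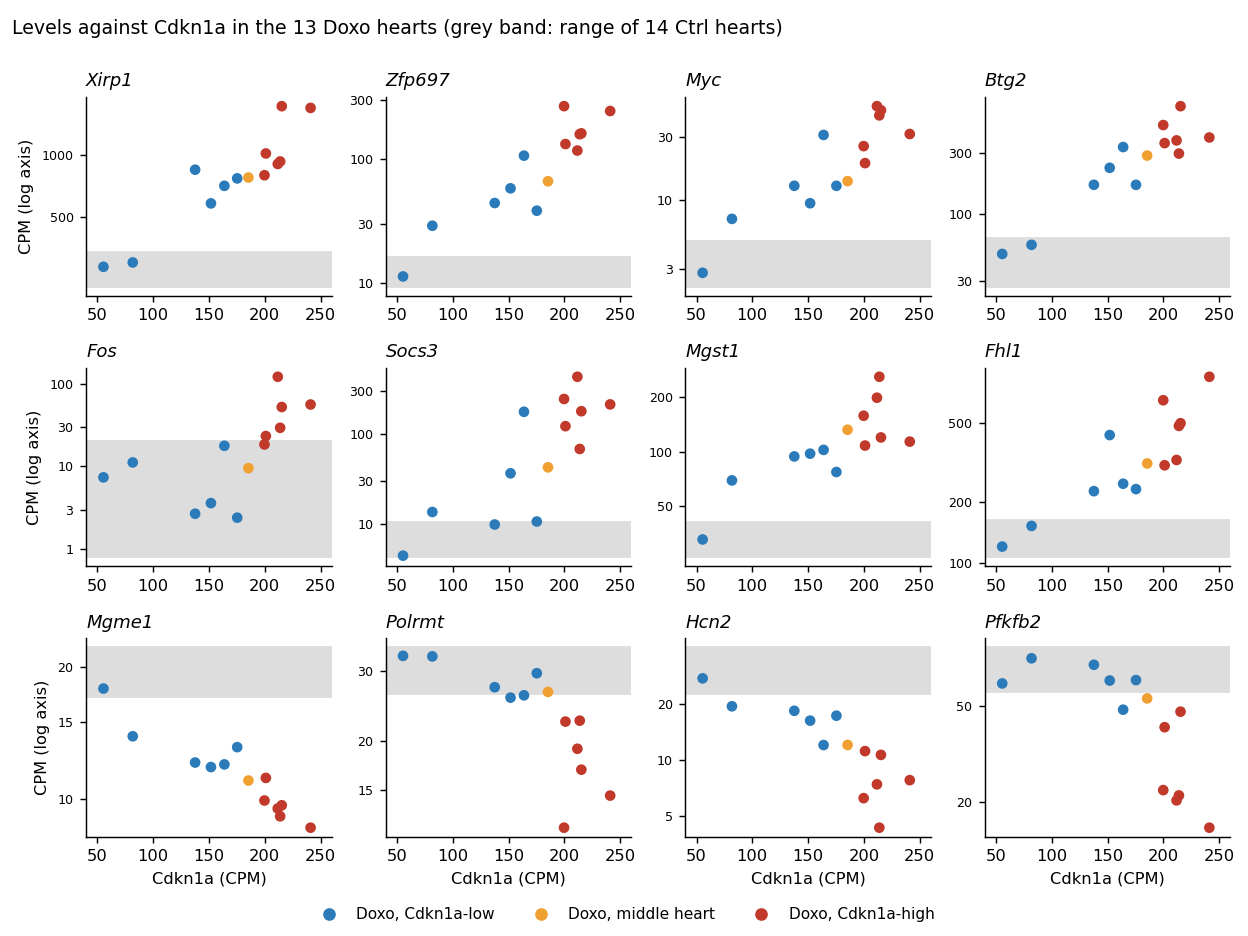
CPM of 12 genes (log y axes) against *Cdkn1a* CPM (x axes) in the 13 Doxo hearts, each point 1 heart, with the range of the 14 Ctrl hearts as a grey band. *Xirp1*, *Zfp697*, *Myc*, *Btg2*, *Fos*, *Socs3*, *Mgst1* and *Fhl1* climb from the Ctrl band as *Cdkn1a* rises, *Mgme1*, *Polrmt*, *Hcn2* and *Pfkfb2* descend out of it, and the lowest heart, Doxo replicate 6, lies in or near the band.

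Of the other genes at the rising end, *Slc7a6*, a cationic amino acid exchanger, had rho 0.86 (0.82 without replicate 6, 0.93 after TMM) and medians of 21.9 CPM in low and 44.8 CPM in high hearts (12.4 to 40.02 and 37.4 to 53.9), with 12.3 CPM in Ctrl. *Plscr2*, a phospholipid scramblase gene, had rho 0.86 (0.82 without replicate 6), but 5 of its 6 low hearts already lay above the Ctrl range of 20.1 to 37.8 CPM, and the low and high medians were 91.8 and 115 CPM. *Sub1*, which encodes a coactivator of RNA polymerase II, had rho 0.86 (0.83 without replicate 6) within a narrow span, from 48.1 to 62.3 CPM in low and from 60.8 to 85.5 CPM in high hearts. *Dnajb13*, *Zc3h12d* and *AC167363.2* had rho of 0.89, 0.86 and 0.86 (0.86, 0.86 and 0.83 without replicate 6) and were scarce, with *Dnajb13* at most 2.18 CPM. *Rps19-ps7* had the highest rho of all on totals, 0.93 (0.92 without replicate 6), but it is a pseudogene of a ribosomal protein gene at 0.392 to 1.44 CPM, and its counts cannot be told apart from those of near-identical copies.

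Members of the p53 target list ran both with and against *Cdkn1a*. Of its 28 genes, all tested, 1 had rho of at least 0.8 and 1 of at most -0.8, 16 were positive, and the median rho was 0.09 (0.45 after TMM, with 19 positive, and -0.06 on totals without replicate 6), which on each of these scales lay above the median of all genes. *Btg2*, an antiproliferative gene, had rho 0.84 (0.80 without replicate 6, 0.90 after TMM) and rose from 48.7, 57.4, 170, 231, 336 and 170 CPM in low hearts to 500, 361, 379, 299, 704 and 400 CPM in high hearts, against a Ctrl median of 41.9 CPM. It overlapped in 1 low heart, replicate 12, and its gene (ENSMUSG00000020423) lies on chromosome 1 from 134075170 to 134079120. *Plk2*, a polo-like kinase gene, had rho 0.797 (0.80 without replicate 6) and medians of 35.2 CPM in low and 80.6 CPM in high hearts.

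Other p53 targets ran against *Cdkn1a*. *Bbc3*, which encodes the pro-apoptotic BH3-only protein PUMA, had rho -0.81 (-0.87 without replicate 6 and -0.87 after TMM), with 3.04 to 6.17 CPM in low hearts, 1.17 to 3.42 CPM in high hearts and 2.19 to 5.38 CPM in Ctrl. Of the 6 high hearts, 5 lay under the Ctrl median, and the highest equalled it at 3.42 CPM. *Ccng1*, the cyclin G1 gene, had rho -0.76 (-0.70 without replicate 6), with a low median of 596 CPM (365 to 1003), a high median of 326 CPM (241 to 472) and a Ctrl median of 1008 CPM, so every Doxo heart except replicate 6 lay under the Ctrl range of 869 to 1072 CPM. *Trp53* itself, the p53 gene, had rho -0.47 (-0.33 without replicate 6) and medians of 8.77 and 8.82 CPM in low and high hearts, which did not separate them. The other CDK inhibitor genes also parted: the 5 tested had a median rho of -0.48 (-0.59 without replicate 6), with *Cdkn1b*, encoding p27, at -0.67 (-0.75 without replicate 6) and *Cdkn2d* at 0.61 (0.50 without replicate 6).

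When the 13 hearts were ordered by the mean log2 level of the p53 list in place of *Cdkn1a*, 4 of the 6 high and 4 of the 6 low hearts stayed on their side, 1 low heart moved to the high side and 2 high hearts moved to the low side. The mean log2 level of the list relative to Ctrl was 0.396 to 0.702 in high hearts and -0.0262 to 0.8002 in low hearts, and its rho with *Cdkn1a* was 0.40 (0.24 without replicate 6). The orders by *Cdkn1a* and by its fellow p53 targets thus differed.

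Immediate early genes are mostly transcription factor genes that switch on within minutes of a stimulus. Of the 20 genes of the AP-1 and immediate early list, 16 had positive rho, 2 of at least 0.8, and the median was 0.52 (0.54 without replicate 6). *Myc*, the growth regulator, had rho 0.87 (0.83 without replicate 6), with 2.80, 11.1 and 30.9 CPM as the lowest, median and highest low heart and 18.9, 37.4 and 50.9 CPM in high hearts, against a Ctrl median of 3.09 CPM. *Fos* had rho 0.80 (0.82 without replicate 6) and no overlap, from 2.39 to 17.7 CPM in low and from 18.4 to 122 CPM in high hearts. The Ctrl hearts alone already spread from 0.796 to 20.3 CPM for *Fos*, and all 6 low hearts lay within that range, whereas *Myc* was above the Ctrl range of 2.20 to 4.88 CPM in all high hearts.

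Genes of the interleukin 6 and STAT3 axis, which carries cytokine signals into the acute phase response, had positive rho for 15 of 16 tested genes, with a median of 0.59 (0.49 without replicate 6, 0.70 after TMM). *Socs3*, the feedback inhibitor of this pathway, had rho 0.77 (0.71 without replicate 6), with low hearts at 4.51, 12.3 and 177 CPM (lowest, median, highest) and high hearts at 68.5, 196 and 432 CPM, a ratio of medians of 16.02. Replicate 12 alone of the low hearts lay inside the range of the high hearts, and the lowest lay in the Ctrl range of 4.35 to 10.6 CPM. *Lrg1*, an acute phase glycoprotein gene, had rho 0.78 (0.72 without replicate 6) with medians of 66.3 and 141 CPM. The 8 tested neutrophil markers were all positive in rho, with a median of 0.60 (0.50 without replicate 6), and their summed CPM was 3.24 to 33.2 (median 11.7) in low hearts, 15.1 to 353 (median 39.3) in high hearts and 1.94 to 7.22 in Ctrl. The neutrophil sum had rho 0.64 (0.55 without replicate 6), and its part in the immediate early and cytokine genes was not tested. In these bulk libraries, fewer cells of a type and less RNA per cell cannot be told apart.

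Genes that respond to stretch and to damage of the sarcomere had the highest median rho of the lists on totals, 0.68 over 17 genes (14 positive and 3 negative, 0.64 without replicate 6). After TMM it was 0.76, below those of the proteasome and cytosolic ribosomal lists. Besides *Xirp1*, the gene *Fhl1*, which encodes a LIM protein bound to titin, had rho 0.84 (0.79 without replicate 6, 0.92 after TMM), with low hearts at 120, 230 and 434 CPM, high hearts at 307, 490 and 850 CPM and Ctrl at a median of 132 CPM. Both *Fhl2* and *Acta1* of this list had negative rho. *Fhl2* was at 609 to 1749 CPM in low, 696 to 1106 CPM in high and 1124 to 1841 CPM in Ctrl hearts. For *Acta1* the ranges were 22.8 to 179, 9.22 to 60.2 and 55.7 to 488 CPM in the same order. *Ankrd1*, encoding the titin-linked cardiac ankyrin repeat protein, and *Myh7*, the slow myosin heavy chain gene, were looked at after their values were seen. *Ankrd1* had rho 0.77 (0.71 without replicate 6), with low hearts at 547 to 5732 CPM and high hearts at 4979 to 13456 CPM, against a Ctrl median of 854 CPM. *Myh7* spread widely on both sides of the ranking beside its Ctrl median of 442 CPM, at 446 to 15990 CPM in low and 7055 to 15373 CPM in high hearts, and its rho of 0.61 fell to 0.50 without replicate 6.

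The main sarcomere genes showed no such common course, with a median rho of -0.18 over 19 genes (-0.20 without replicate 6, 0.14 after TMM). *Myh6*, the fast myosin heavy chain of the adult mouse ventricle, had rho -0.75 (-0.69 without replicate 6), and its low hearts at 14239, 29803 and 36182 CPM (lowest, median, highest) reached into the Ctrl range of 32643 to 36782 CPM whereas its high hearts, at 7286, 11643 and 19385 CPM, did not. *Nebl*, the nebulette gene of the Z-disc, had rho -0.88 (-0.86 without replicate 6, -0.54 after TMM), with 255 to 372 CPM in low and 208 to 265 CPM in high hearts. *Trim55*, encoding the muscle ring finger protein MURF2, had rho -0.90 on totals (-0.87 without replicate 6) but -0.41 after TMM, so its rank among the falling genes depended on the scaling. *Asb10*, a gene of the ankyrin repeat and SOCS box family, had rho -0.90 (-0.87 without replicate 6, -0.76 after TMM), and its low hearts (49.4 to 95.4 CPM) and high hearts (22.8 to 44.8 CPM) did not overlap.

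None of the NRF2, glucocorticoid or metallothionein genes reached a rho of 0.8. The 20 NRF2 targets, detoxifying genes under the transcription factor that senses electrophiles, had a median rho of 0.52 (0.39 without replicate 6) and 15 were positive. *Mgst1*, a membrane-bound glutathione transferase gene, had rho 0.79 (0.73 without replicate 6) with no overlap, at 32.7 to 102 CPM in low and 108 to 259 CPM in high hearts, against a Ctrl median of 35.6 CPM. *Txnrd1*, the cytosolic thioredoxin reductase gene, had rho 0.74 (0.67 without replicate 6) with medians of 92.5 and 202 CPM. The metallothionein genes *Mt1* and *Mt2*, which respond to metals and glucocorticoids, had rho of 0.73 and 0.77 (0.65 and 0.71 without replicate 6). *Mt1* was at 97.6, 238 and 994 CPM in low hearts and 844, 1108 and 1731 CPM in high hearts, and *Mt2* at 0.687, 2.12 and 12.4 CPM in low and 12.2, 15.4 and 30.7 CPM in high hearts, so that for both genes 1 low heart, replicate 12, reached into the high range. Over the 15 genes of the glucocorticoid and metallothionein list the median rho was 0.37, and it fell to 0.20 without replicate 6. Of these genes 13 were positive and 2, the glucocorticoid-induced *Tsc22d3* and *Pik3r1*, were negative. *Tsc22d3* was at 54.1 to 128 CPM in low and 36.6 to 100 CPM in high hearts. *Pik3r1* was at 175 to 440 CPM in low and 148 to 430 CPM in high hearts.

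The ATF4 list, genes of the integrated stress response, had a median rho of 0.08 over 21 tested genes (-0.03 without replicate 6). A pair of its genes stood above that: *Psat1*, of serine synthesis, had rho 0.76 (0.69 without replicate 6) with low hearts at 2.01 to 4.18 CPM and high hearts at 4.01 to 20.2 CPM, and *Atf4* had rho 0.71 (0.64 without replicate 6) with medians of 85.2 and 166 CPM. Heat shock chaperones had a median rho of 0.08 (0.21 without replicate 6, 0.42 after TMM), interferon-stimulated genes of -0.24 (-0.20 without replicate 6) and proliferation genes of -0.18 (-0.09 without replicate 6).

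On totals, no proteasome, cytosolic ribosomal protein or initiation factor gene reached a rho of 0.8, but most were positive beside 33.1% of all genes. The 38 tested proteasome subunit genes had a median rho of 0.61 (0.54 without replicate 6, 0.81 after TMM) and 32 were positive. *Psma6*, of the catalytic core, had rho 0.797 (0.74 without replicate 6) and was at 94.5, 120 and 143 CPM in low hearts and 127, 151 and 158 CPM in high hearts, against 85.8 to 99.5 CPM in Ctrl. The 83 cytosolic ribosomal protein genes had a median rho of 0.57 (0.45 without replicate 6, 0.80 after TMM) and 80 were positive, yet the steps were small, as in *Rpl27*, with rho 0.73 (0.66 without replicate 6) and medians of 106 and 132 CPM. The 60 translation initiation factor genes had a median rho of 0.43 (0.30 without replicate 6, 0.71 after TMM) and 43 were positive, with *Eif3b* at medians of 174 and 231 CPM. They were taken by symbols that begin with Eif and a digit, so genes that regulate initiation can be among them. The 17 cytosolic aminoacyl-tRNA synthetase genes, which load amino acids for translation, had a median rho of 0.10 (-0.02 without replicate 6, 0.61 after TMM) and 10 were positive. Members of one complex are expressed together, so these counts do not stand for independent genes. Among atrophy and autophagy genes the median rho was 0.34 over 16 genes (0.18 without replicate 6), with *Bnip3*, a mitophagy receptor gene, at 0.79 (0.73 without replicate 6) and medians of 287 CPM in low, 450 CPM in high and 89.7 CPM in Ctrl hearts.

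**Figure D3:**
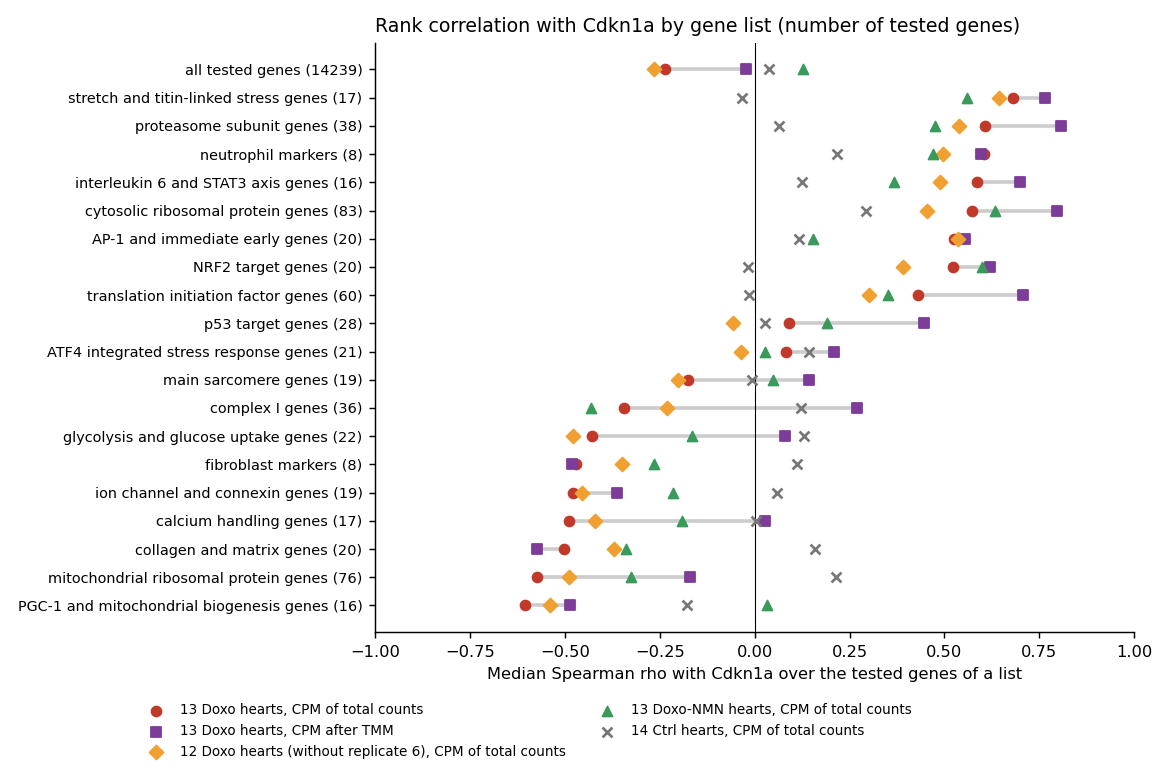
Median rho with *Cdkn1a* (x axis) for 19 gene lists and for all tested genes (y axis), over the 13 Doxo hearts on totals, the same after TMM, without Doxo replicate 6, over the 13 Doxo-NMN hearts and over the 14 Ctrl hearts. Stretch, proteasome, neutrophil, interleukin 6 and cytosolic ribosomal lists lie at 0.57 to 0.68 in the Doxo hearts, and PGC-1, mitochondrial ribosomal and collagen lists at -0.60 to -0.50 on totals, beside -0.24 for all genes, and the order changes after TMM.

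On totals over all 13 hearts, the lowest medians were those of the PGC-1 and mitochondrial ribosomal lists, whereas after TMM the collagen list was lowest. The 16 genes of the PGC-1 and mitochondrial biogenesis list had a median rho of -0.60 (-0.54 without replicate 6, -0.49 after TMM), 2 of at most -0.8 and 3 positive. *Polrmt*, the mitochondrial RNA polymerase gene, had rho -0.84 (-0.79 without replicate 6, -0.88 after TMM), at 32.7, 32.6, 27.3, 25.7, 26.02 and 29.6 CPM in low hearts, 26.5 CPM in the middle heart and 12.1, 22.3, 19.1, 22.5, 16.9 and 14.5 CPM in high hearts. Its low hearts were near the Ctrl range of 26.2 to 34.4 CPM and none of its high hearts reached it. *Polg*, encoding the DNA polymerase of mitochondria, had rho -0.85 on totals (-0.81 without replicate 6) and -0.51 after TMM, with medians of 54.9 and 41.1 CPM. *Mgme1*, an exonuclease that maintains mitochondrial DNA, had the lowest rho of all genes on totals, -0.93 (-0.91 without replicate 6 and -0.54 after TMM), and was at 11.8 to 17.9 CPM in low, 8.60 to 11.2 CPM in high and 17.1 to 22.2 CPM in Ctrl hearts. *Ppargc1a*, the gene of the coactivator PGC-1 alpha, was looked at after its values were seen and had rho -0.74 (-0.67 without replicate 6): its low hearts ran from 88.0 to 316 CPM, its high hearts from 40.5 to 97.3 CPM and its Ctrl hearts from 260 to 703 CPM.

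Mitochondrial ribosomal protein genes had mostly negative rho on totals. Their median rho was -0.57 over 76 genes (-0.49 without replicate 6) and 6 were positive. After TMM the median was -0.17 and 29 were positive, beside -0.02 and 6952 of 14239 for all genes. Their place below the other genes was thus smaller on that scale. *Mrpl49*, of the large subunit, had rho -0.86 (-0.83 without replicate 6, -0.55 after TMM), with low hearts at 14.6 to 32.7 CPM, high hearts at 11.7 to 13.8 CPM and Ctrl at 26.1 to 34.8 CPM. The 36 complex I genes changed sign between the scales, with a median rho of -0.34 on totals (-0.23 without replicate 6) and 0.27 after TMM. The 13 protein genes of the mitochondrial DNA itself had a median rho of -0.01 (0.26 without replicate 6, 0.38 after TMM), and the percentage of counts from mitochondrial DNA had rho 0.09 with *Cdkn1a* (0.38 without replicate 6).

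The 22 glycolysis genes had a median rho of -0.43 on totals (-0.48 without replicate 6) and 0.08 after TMM. *Pfkfb2*, which encodes the cardiac enzyme that makes the activator of phosphofructokinase, had rho -0.85 (-0.88 without replicate 6, -0.72 after TMM), and its low hearts at 48.1, 63.7 and 78.6 CPM overlapped Ctrl (56.8 to 87.2 CPM) whereas its high hearts at 15.6, 21.8 and 47.2 CPM lay below all of them. *Eno3*, the muscle enolase gene, had rho -0.75 (-0.68 without replicate 6) with medians of 930 and 540 CPM. The related *Pfkfb3* ran the other way, at rho 0.67 (0.58 without replicate 6). The 21 fatty acid oxidation and fasting genes had a median rho of 0.15 (0.21 without replicate 6, 0.31 after TMM).

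The 27 tested genes of NAD+ metabolism, the pathway that NMN feeds, had a median rho of -0.13 (-0.24 without replicate 6, -0.01 after TMM), with 13 positive. *Sirt3*, the mitochondrial NAD+-dependent deacetylase gene, had rho -0.74 (-0.67 without replicate 6, -0.75 after TMM), with low hearts at 12.6, 19.3 and 30.5 CPM, high hearts at 7.49, 9.74 and 14.6 CPM and Ctrl at a median of 30.3 CPM. *Nmnat1*, which encodes the nuclear enzyme that makes NAD+ from NMN, had rho -0.69 (-0.61 without replicate 6) with medians of 18.4 and 10.6 CPM. *Cd38*, the gene of an enzyme that breaks NAD+ down, had rho 0.49 (0.41 without replicate 6). *Nampt*, the rate-limiting gene of NAD+ salvage, was looked at after its values were seen and had rho 0.04 (-0.22 without replicate 6).

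Ion channel and connexin genes had a median rho of -0.48 over 19 genes (-0.45 without replicate 6, -0.36 after TMM), with 3 of at most -0.8. *Hcn2* (ENSMUSG00000020331), a pacemaker channel gene, was at 12.04 to 27.7 CPM in low and 4.30 to 11.2 CPM in high hearts, against 22.8 to 40.7 CPM in Ctrl, with rho -0.86 (-0.83 without replicate 6). It lies on chromosome 10 from 79716634 to 79736108 on the plus strand and ends next to *Polrmt* (79736123 to 79746581, minus strand), so reads that run past either gene would fall in the other if counting ignored strand. *Kcnj3*, of the acetylcholine-gated potassium channel, had rho -0.81 (-0.84 without replicate 6, -0.87 after TMM), with 51.1 to 102 CPM in low and 16.97 to 50.7 CPM in high hearts. It is an atrium-rich channel and Ctrl hearts alone spread from 52.9 to 208 CPM. Calcium handling genes had a median rho of -0.49 on totals (-0.42 without replicate 6) but 0.03 after TMM, with *Casq2*, the calcium buffer of the sarcoplasmic reticulum, at medians of 633 and 426 CPM and a Ctrl median of 992 CPM.

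*Pde4b*, a cAMP phosphodiesterase gene of the adrenergic list, had rho 0.82 (0.79 without replicate 6) and no overlap, from 32.5 to 70.5 CPM in low and 71.8 to 462 CPM in high hearts. The remaining genes at the falling end had varied roles: *Fam20c*, a secretory pathway kinase gene, *Stk39*, a kinase gene of salt transport, *Slc37a4*, the glucose 6-phosphate transporter gene, *Nicn1*, *Ifit1bl2*, *Mmp17* and *Lrrc1* had rho of -0.92 to -0.91 (-0.92 to -0.88 without replicate 6). *Fam20c* was at 9.47 to 13.7 CPM in low and 6.87 to 8.95 CPM in high hearts, and *Stk39* fell to a rho of -0.56 after TMM.

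Genes of other cell types went in different directions, with neutrophil markers higher as above and most matrix and smooth muscle genes lower. The 20 collagen and matrix genes had a median rho of -0.50 (-0.37 without replicate 6, -0.57 after TMM), with *Col5a1* at medians of 13.8 CPM in low, 7.46 CPM in high and 53.9 CPM in Ctrl hearts. Of them 15 were negative and 5 positive, *Lox* and *Ctgf* among the latter. *Lox* was at 4.51 to 48.3 CPM in low, 26.4 to 50.3 CPM in high and 4.41 to 12.6 CPM in Ctrl hearts. For *Ctgf* the ranges were 39.4 to 699, 213 to 1600 and 40.6 to 178 CPM in the same order. The summed CPM of 8 fibroblast markers was 994 to 2230 in low hearts, 958 to 2025 in high hearts and 3493 in the middle heart, with rho -0.45 (-0.45 without replicate 6). Smooth muscle markers separated more, with a sum of 120 to 253 CPM in low, 56.6 to 145 CPM in high and 129 to 359 CPM in Ctrl hearts and rho -0.68 (-0.66 without replicate 6). *Acta2*, the smooth muscle actin gene, had rho -0.77 (-0.71 without replicate 6) and did not overlap, at 61.7 to 108 CPM in low and 19.1 to 44.4 CPM in high hearts. The sums of endothelial, macrophage, adipocyte and red cell markers had rho of -0.31, -0.14, 0.26 and -0.05 (-0.32, -0.22, 0.06 and 0.20 without replicate 6). The adipocyte sum was nearly all *Plin4*, at 310 to 1211 CPM in the Doxo hearts, whereas *Adipoq* was at most 7.34 CPM. Over the 6 tested adipocyte markers the median rho was -0.09 (-0.24 without replicate 6), and 4 were negative. All of these measures belong to the same hearts as the gene values above, and their part in them was not tested.

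The 2 hearts farthest from the median of *Cdkn1a*, Doxo replicates 6 and 7, carried part of these relations, and leaving both out was a choice made after seeing the data. Over the 11 hearts left, the median rho was 0.54 for stretch genes, 0.53 for neutrophil markers, 0.47 for immediate early genes, 0.41 for cytosolic ribosomal and 0.40 for proteasome genes, 0.37 for interleukin 6 and STAT3 genes and -0.44 for the PGC-1 list, beside -0.23 for all genes. It was 0.25 for NRF2 targets, 0.16 for initiation factors, -0.05 for the glucocorticoid and metallothionein list, -0.06 for atrophy genes and -0.08 for p53 targets. The positive sign of the glucocorticoid, atrophy and p53 medians on totals thus rested on those 2 hearts, though each median still lay above that of all genes. Among single genes, rho was 0.83 for *Xirp1* and 0.78 for *Zfp697*, and Pearson's r of log2 values was 0.71 and 0.79 (0.90 and 0.89 over all 13). For *Mgme1* and *Pfkfb2* rho was -0.88 and -0.85.

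How far a heart had moved from Ctrl was measured by scores from genes chosen in a fit without any Doxo heart. The low-count filter before that fit did cover the Doxo hearts. The genes came from Doxo-NMN vs. Ctrl, which differ in both Doxo and NMN, so the scores cannot tell these treatments apart. In Doxo-NMN vs. Ctrl, 535 genes were higher (3.76%) and 622 lower (4.37%) at an adjusted p under 0.05 with a fold of at least 1.5 (edgeR), and the score of a heart is the mean log2 level of those genes minus the Ctrl mean. The raised-gene score was 1.36, 1.45 and 1.59 (lowest, median, highest) in *Cdkn1a*-high hearts and -0.124, 1.09 and 1.74 in *Cdkn1a*-low hearts. The highest score of all 13 hearts, 1.74, belonged to a *Cdkn1a*-low heart, replicate 12. Its rho with *Cdkn1a* was 0.48 over the 13 hearts and 0.34 without replicate 6. The lowered-gene score was -1.88 to -1.26 in high and -1.73 to -0.178 in low hearts, with -0.79 in the middle heart and rho -0.60 (-0.50 without replicate 6). The lowered-gene score also went with *Myl4*. In Ctrl hearts it was -0.0274 to 0.298 where *Myl4* was above 100 CPM and -0.337 to -0.0365 elsewhere. In Doxo hearts it was -1.48 to -0.789 where *Myl4* was above 100 CPM. In the other Doxo hearts it was -1.88 to -1.52, apart from replicate 6. The part of atrial tissue in the scores was not tested. The medians of both scores followed the label of strong and weak responders, but the sides overlapped heart by heart, so the hearts are named by their *Cdkn1a* level.

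**Figure D4:**
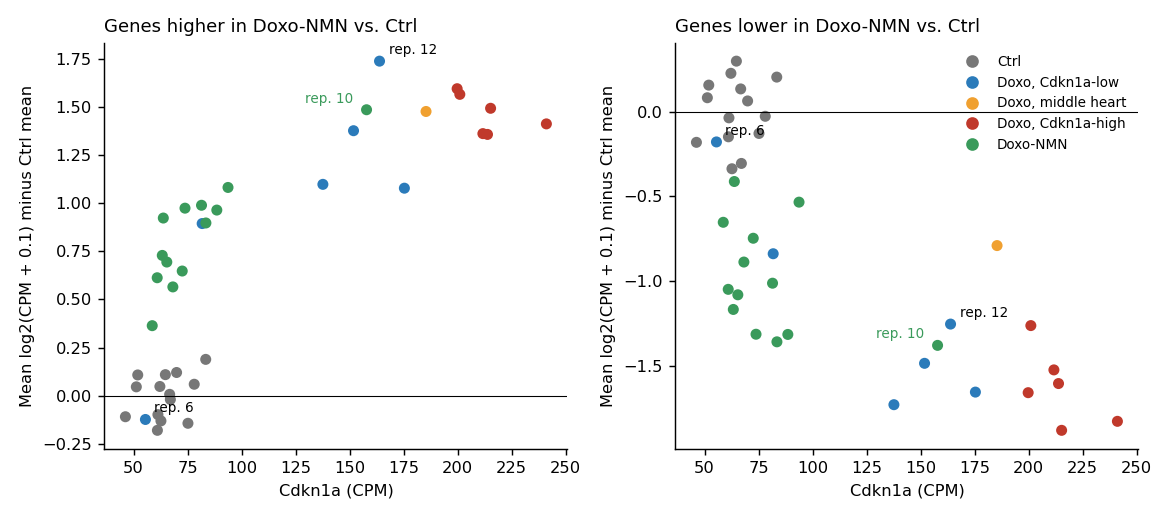
Scores of genes raised (one panel) and lowered (the other) in Doxo-NMN vs. Ctrl hearts, as mean log2 difference from Ctrl (y axes), against *Cdkn1a* CPM (x axes), each point 1 of the 40 acute hearts. Doxo replicate 6 lies with Ctrl, *Cdkn1a*-low hearts overlap *Cdkn1a*-high hearts, and the highest raised-gene score, 1.74, is in a *Cdkn1a*-low heart.

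Of the 55 rising genes, 9 (16.4%) were also higher and 1 lower in Doxo-NMN vs. Ctrl, beside 3.76% and 4.37% of all genes, and of the 267 falling genes 24 (8.99%) were lower and none higher. *Zfp697* was higher in Doxo-NMN by 1.04 ± 0.19 on the log2 scale (SE, adjusted p = 9.54e-05), *Plscr2* by 1.07 ± 0.13 (adjusted p = 5.54e-07) and *Mgst1* by 0.87 ± 0.14 (adjusted p = 1.66e-05, edgeR). *Xirp1* did not pass (0.43 ± 0.19, adjusted p = 0.0705), and the gene that was lower was *Fos* (-0.93 ± 0.37, adjusted p = 0.0443).

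The same relation was then tested in hearts the ranking did not use. In the 13 Doxo-NMN hearts, a slope on log2 *Cdkn1a* was fitted for each gene with edgeR, and 1142 genes rose (8.02%) and 947 fell (6.65%) at an adjusted p under 0.05. Of the 55 genes that rose with *Cdkn1a* in Doxo hearts, 22 (40%) rose in Doxo-NMN hearts and none fell, and of the 267 that fell, 98 (36.7%) fell and none rose. These shares are above the background of 8.02% and 6.65%, but every call rested on 1 heart. Without Doxo-NMN replicate 10, the heart at 157.8 CPM of *Cdkn1a*, 0 genes passed in either direction by edgeR, with 884 at an unadjusted p under 0.05. With the rank of *Cdkn1a* in place of its log2 level, 0 genes passed as well, with 2338 at an unadjusted p under 0.05.

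The sign of the slopes did not depend on that heart to the same degree. The slope was positive for 46 of the 55 rising genes (83.6%), and for 45 (81.8%) without replicate 10, beside 50.9% and 49.6% of all genes. It was negative for 251 of the 267 falling genes (94.0%), and for 229 (85.8%) without replicate 10, beside 49.1% and 50.4% of all genes. These counts describe the signs of single slopes in genes that move together and are not a test.

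Among single genes, *Zfp697* rose by 1.52 ± 0.20 log2 units for each log2 unit of *Cdkn1a* (SE, n = 13, adjusted p = 0.000602), with 84.5 CPM in replicate 10 and 12.8 to 38.7 CPM in the other hearts. Without that heart its slope was 1.32 with an adjusted p of 0.696. *Xirp1* rose by 1.34 ± 0.27 (edgeR, adjusted p = 0.00517), *Btg2* by 1.30 ± 0.22 (adjusted p = 0.00251) and *Myc* by 1.42 ± 0.36 (adjusted p = 0.0167). *Ccng1* fell, as it did along the Doxo ranking, by 0.96 ± 0.16 log2 units (edgeR, adjusted p = 0.0019), and replicate 10 had 386 CPM against 688 to 1098 CPM in the others. *Sirt3* fell by 0.57 ± 0.09 (adjusted p = 0.00161).

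Some of the genes with a high or low rho in the Doxo hearts did not pass in Doxo-NMN hearts. The slope of *Polrmt* was -0.18 ± 0.18 (edgeR, adjusted p = 0.541), that of *Polg* -0.01 ± 0.14 (adjusted p = 0.962), that of *Fos* 0.42 ± 0.40 (adjusted p = 0.525) and that of *Socs3* 0.21 ± 0.23 (adjusted p = 0.59). *Socs3* was at 6.33 to 15.9 CPM in Doxo-NMN hearts, far from the 68.5 to 432 CPM of *Cdkn1a*-high Doxo hearts, so each of them lay below every *Cdkn1a*-high Doxo heart in it.

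At the top of the slopes in Doxo-NMN hearts, by adjusted p, stood *Lcn2*, encoding the iron-scavenging protein lipocalin 2, and *Hsd11b1*, encoding the enzyme that regenerates active glucocorticoid. *Lcn2* rose by 2.75 ± 0.30 (edgeR, adjusted p = 0.000275) and was at 87.7 CPM in replicate 10 and 3.40 to 17.6 CPM in the others. *Hsd11b1* rose by 1.80 ± 0.18 and *Zrsr2*, a splicing factor gene, by 0.74 ± 0.08 (both adjusted p = 0.000275). *Nt5c1a*, a cytosolic AMP nucleotidase gene, had a slope of -1.34 ± 0.15 (edgeR, adjusted p = 0.000275), *Pdp2*, a pyruvate dehydrogenase phosphatase gene, of -1.09 ± 0.13 (adjusted p = 0.000325) and *Slc26a6*, an anion exchanger gene, of -0.88 ± 0.11 (adjusted p = 0.000478). In the Doxo hearts their rho were 0.71, 0.65, 0.28, -0.58, -0.75 and -0.85 in the same order (0.63, 0.56, 0.08, -0.46, -0.68 and -0.80 without replicate 6), so *Zrsr2* alone of the 6 had a weak relation there.

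By list, the slopes in Doxo-NMN hearts had the direction of the Doxo ranking on totals for protein synthesis and the mitochondrial ribosome, among other lists. The slopes were fitted with TMM, however. On that scale the Doxo medians were -0.17 for mitochondrial ribosomal, 0.03 for calcium handling and 0.08 for glycolysis genes, beside -0.02 for all genes. Cytosolic ribosomal and initiation factor genes were at 0.80 and 0.71 there, and collagen and ion channel genes at -0.57 and -0.36. The counts are read beside the 8.02% of all genes that rose and the 6.65% that fell. Of 83 cytosolic ribosomal protein genes, 26 rose and 1 fell, and of 76 mitochondrial ribosomal protein genes, none rose and 25 fell. Of 60 initiation factor genes, 15 rose and none fell. NRF2 targets rose in 8 of 20, glucocorticoid and metallothionein genes in 7 of 15, stretch genes in 6 of 17 with 1 that fell, and interleukin 6 and STAT3 genes in 6 of 16. Atrophy genes rose in 7 of 16. Collagen and matrix genes fell in 8 of 20 and glycolysis genes in 6 of 22, with 2 that rose in each list. Ion channel and connexin genes fell in 6 of 19 and calcium handling genes in 6 of 17, and none rose. Of the p53 targets, 6 of 28 rose and 1, *Ccng1*, fell. The PGC-1 list had 1 of 16 genes that fell and a median rho of 0.03, and none of the 8 neutrophil markers passed. All these calls rest on Doxo-NMN replicate 10 as above.

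In Ctrl hearts, 0 genes passed in either direction (0%), with 473 at an unadjusted p under 0.05 by edgeR and 0 adjusted and 501 unadjusted by DESeq2. *Cdkn1a* covered 46.2 to 83.4 CPM there, a narrower span than in either other group. The slopes of *Zfp697*, *Xirp1* and *Btg2* were -0.11 ± 0.19, -0.16 ± 0.22 and -0.07 ± 0.40 (edgeR, each adjusted p = 0.999). In a comparison added after the data were seen, the slope differed between Doxo-NMN and Ctrl hearts for 257 genes (1.80%), 135 with the higher and 122 with the lower slope in Doxo-NMN, and for 0 genes without Doxo-NMN replicate 10, with 601 at an unadjusted p under 0.05. *Zfp697* was among the 257 (difference 1.65, adjusted p = 0.0156) and *Xirp1* was not (1.52, adjusted p = 0.0696).

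**Figure D5:**
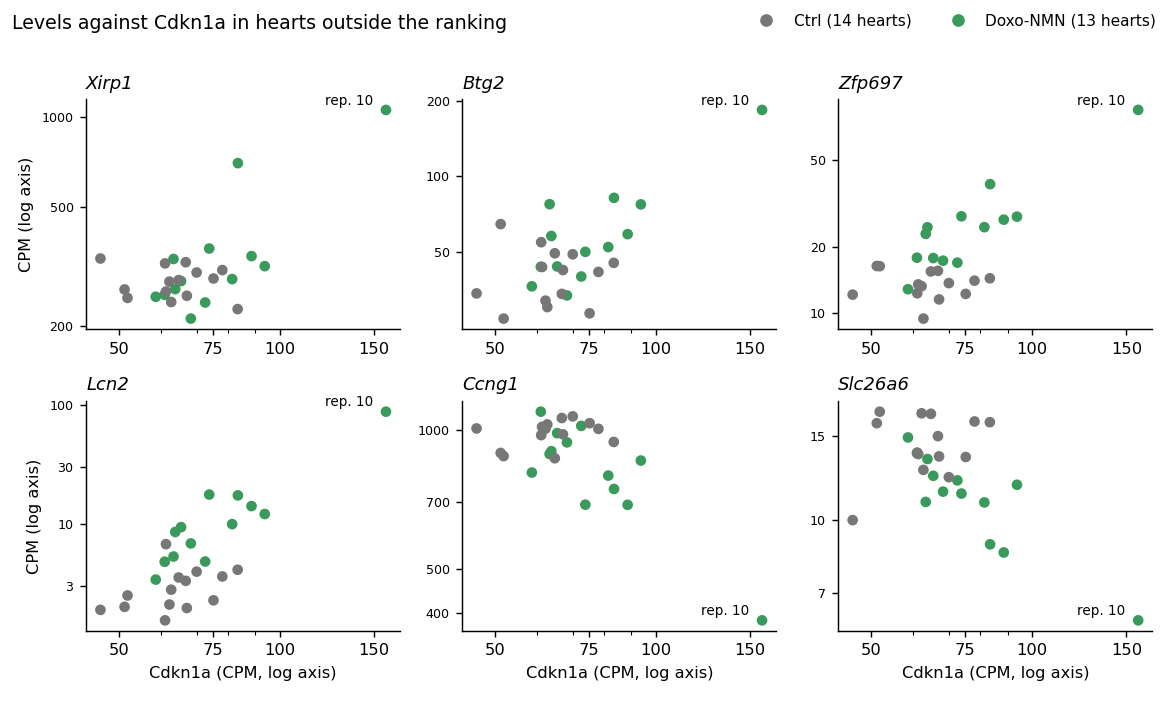
CPM of *Xirp1*, *Btg2*, *Zfp697*, *Lcn2*, *Ccng1* and *Slc26a6* (log y axes) against *Cdkn1a* CPM (log x axes) in the 14 Ctrl and 13 Doxo-NMN hearts, each point 1 heart. Doxo-NMN replicate 10, at 157.8 CPM of *Cdkn1a*, lies apart in every panel, and no gene passed in the Ctrl hearts.

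Short motifs in the promoters were counted to describe the genes past the limits. Windows from 250 bases before to 50 after the start were found for 10801 tested genes, 40 of the 55 rising and 204 of the 267 falling genes, and each motif reads the same on both strands. The paired p53 core CATGNNNNNNCATG, which the window of *Cdkn1a* above holds, was in 0 of the 40 rising and 1 of the 204 falling genes (0.49%), beside 0.37% of tested genes. The cAMP response element TGACGTCA was in 1 rising gene, *Btg2* (2.5%), and 4 falling genes (1.96%), beside 3.37%. The AP-1 motif TGANTCA was in 2 rising (5%) and 17 falling genes (8.33%), beside 6.45%, and the E-box CACGTG in 6 (15%) and 23 (11.3%), beside 11.4%. A missing match says only that these letters are not in this window.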

How the data were processed

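Poly(A) RNA of mouse hearts was sequenced. The authors aligned the reads to the mouse genome (mm10) and deposited whole-number counts per gene and heart, not normalised. Per the submitters' processing notes, the tools were STAR 2.7.3a and featureCounts 2.0.0, and whether counting used strand is not given in the sources used here. The table of the acute study held 25416 genes, 3617 of them without a count in the 40 hearts, and each of its 40 columns was matched to a heart by its title. Of the counts from 1 to 20, 73.7% were even, so the depth in fragments may be lower than the totals. No 2 libraries of the same group agreed within counting error, and libraries of different groups were not compared in this way. Limits from counts cover counting error only.

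CPM was the count divided by the column total times 1000000, with 0.1 CPM added before log2. The 13 Doxo hearts were ranked by *Cdkn1a* CPM and described by Spearman's rho, with limits of 0.8 and -0.8, and by the groups of 6. Tests used edgeR 4.0.16 in R 4.3.3 (quasi-likelihood F-test, TMM, low-count filter, two-sided, Benjamini-Hochberg over all genes tested, limit 0.05). The low-count filter was set over the Ctrl, Doxo and Doxo-NMN hearts together. In the 13 Doxo-NMN and the 14 Ctrl hearts they tested the slope on log2 *Cdkn1a* CPM, and they compared Doxo-NMN vs. Ctrl with a fold of at least 1.5. DESeq2 1.42.0 was the alternative tool, and other scalings, filters, rankings and left-out hearts were tried. Hearts came from separate mice. The tests were first run on simulated counts. Descriptions used Python 3.11.15, pandas 2.3.3 and scipy 1.17.1.

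Named genes were the 10 with the highest and the 10 with the lowest rho, the 2 highest and 2 lowest of each list (some are not reported here), the 3 rising and the 3 falling genes with the smallest adjusted p for the slope in Doxo-NMN hearts, and *Cdkn1a*, *Trp53* and *Myl4*. Genes outside the rule were chosen after their values were seen. The hearts, lists and tests were chosen with earlier results of these data known. The chronic study was not used here.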

Additional observations from a re-analysis of the deposited data

Results flagged for a closer look

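In 68 sets of 6 values, each a measure in the 6 *Cdkn1a*-high or the 6 *Cdkn1a*-low Doxo hearts and none of them *Cdkn1a*, the gap between the highest or lowest heart and the next was divided by the range and set against Dixon's 95% limit for 6 samples. The gap was past the limit in 9 sets, where chance flags about 1 in 20. Among *Cdkn1a*-high hearts, total counts were farthest in replicate 8 at 43057628, and summed neutrophil markers in replicate 13 at 352.5 CPM. Replicate 11 was farthest in 3 marker sums, B and T cells at 73.59 CPM, fibroblasts at 2025 CPM and atrial genes at 1202 CPM. Among *Cdkn1a*-low hearts, *Myc* was farthest in replicate 12 at 30.86 CPM. Replicate 6 was farthest in 3 measures, *Mgme1* at 17.86 CPM, red cell markers at 333 CPM and B and T cell markers at 10.45 CPM.

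The slope on *Cdkn1a* differed between Doxo-NMN and Ctrl hearts for 257 genes by the test of the difference itself (edgeR), and for 0 without Doxo-NMN replicate 10, with 601 at an unadjusted p under 0.05.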

How the results depend on the processing

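The counts of genes with rho of at least 0.8 and at most -0.8, 55 and 267, moved to 340 and 555 with Pearson's r of log2 values, 236 and 757 over the 8 hearts with *Myl4* under 100 CPM, 501 and 108 with the p53 list as the ranking value, 17 and 72 without the 2 hearts farthest from the median, 250 and 1084 at a limit of 0.7 and 1 and 10 at 0.9. TMM gave 486 rising, and partial correlation given *Myl4* 554 falling. Without replicate 6 they were 27 and 141, and leaving out each Doxo heart in turn gave 27 to 166 and 117 to 470. Genes with no overlap, 26 higher and 164 lower, were 110 and 54 when ranked by the p53 list, and 94 were higher after TMM.

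Slopes in Doxo-NMN hearts, 1142 rising and 947 falling, became 0 and 0 with ranks and 1725 and 1428 with log2 *Myl4* as a covariate, and 1493 fell among hearts with low *Myl4*. Leaving out 1 heart gave 0 to 1334 and 0 to 1380, with 0 only for replicate 10. In Ctrl hearts every alternative gave 0. The difference of the slopes, 135 and 122, was 0 and 0 without Doxo-NMN replicate 10. Doxo-NMN vs. Ctrl, 535 higher and 622 lower, gave 1216 higher with no filter, 302 and 385 with at least 10 counts in every heart, 3087 and 2519 with no fold limit, and 447 to 575 and 571 to 767 leaving out 1 heart. With the replicate number as a block it gave 479 and 629, and same-numbered hearts deviated together with correlations of -0.62 to 0.58 over 13 numbers, so the numbers do not pair the hearts. The 2 farthest hearts, the partial correlations and the difference of slopes were chosen after seeing the data. The cause of these shifts was not tested. With 13 hearts and 1 far from the rest, a slope in Doxo-NMN hearts cannot be told apart from the state of that heart. The balance of rising and falling genes turned with TMM and with the p53 list. For the 20 genes at the ends of the ranking and the 6 with the smallest adjusted p of the slopes, no alternative changed a sign, 518 values kept their side or size, 52 moved and 12 lost significance, the last all without replicate 10 or with ranks.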
